A study of Mus musculus with 46 samples.

Results

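The genes described here build ribosomes in the nucleolus or encode RNA helicases of the DEAD and DEAH families. They were chosen by name. A probe set, the group of short oligonucleotides that reports 1 transcript on the array, was taken where its single gene symbol began with Nop, Nol, Rrp, Utp, Polr1, Ddx or Dhx, or was Rrs1, Gnl3, Ncl, Npm1, Npm3, Fbl, Dkc1, Bop1, Pes1, Wdr12, Wdr43, Ebna1bp2, Imp3, Imp4, Bysl or Nip7. The rule found 94 probe sets of 67 genes among 12422 probe sets tested, of which those with a single symbol read 8251 genes. All 94 entered every fit, since no filter on low signal was applied. Npm3 and Dkc1 had no probe set under the rule and were not analysed here.

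The study asked how liver of young and old mice responds in the first hours after partial hepatectomy (PH), the surgical removal of 70% of the liver. All animals were male CB6F1 hybrid mice. Young mice, 5 to 6 months old, came from Jackson Laboratories, and old mice, 25 to 27 months old, came from the National Institute on Aging, so age and supplier cannot be told apart. Liver RNA was hybridised to Affymetrix U74Av2 arrays, 46 in all. In each age, unoperated liver (0 h) was measured on 3 arrays, liver at 0.5, 1, 2 and 4 h after PH on 3 arrays per time, and liver at the same times after sham surgery on 2 arrays per time, which gave 18 groups. The labels do not say whether replicate arrays came from separate animals, so p-values measure the spread between arrays, which may be technical. The same 6 arrays at 0 h served as the reference for every PH and sham difference from 0 h. In whole liver, fewer cells of a type and less RNA per cell cannot be told apart.

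Ribosome production starts with transcription of ribosomal DNA by RNA polymerase I. The long precursor is cut, chemically modified under the guidance of small nucleolar ribonucleoproteins (RNPs), and assembled with ribosomal proteins by a small subunit processome and by separate large subunit factors. RNA helicases remodel RNA and RNA-protein complexes during these steps, and other members of the same families act in splicing, mRNA export, decay and translation. Hepatocytes that leave quiescence after loss of liver mass are known to raise ribosome production before they replicate their DNA.

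Values are RMA log2 levels, and a difference of 1 is a doubling of the signal. The median level of an array lay between 6.22 and 6.33. Hepatocyte markers were high: 7 of 9 listed genes were measured, and 7 of their 8 probe sets stood at or above the percentile 97.7 of all probe sets, with Alb and Apoa1 at the top. Sham arrays stood apart from 0 h at the earliest time, with 22.3% of all probe sets passing the test at 0.5 h against 0.0886% after PH. The labels give no processing batch, and the part of array handling in the sham differences was not tested. The bacterial spike-in control probe sets averaged 9.74 at 0 h, 8.31 at 1 h after PH and 8.35 at 2 h after PH, and 9.61 and 10.03 at 0.5 and 4 h after PH. The sham means were 9.34 to 9.48, and the spike-in levels varied less over the 4 sham arrays of a time (SD 0.043 to 0.19) than over the 6 arrays at 0 h or at a time after PH (SD 0.44 to 1.01).

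Of the 4 times after PH, 4 h had the most members higher than at 0 h, 25 of 94 probe sets, led by Nop58, Rrs1, Ddx3x, Gnl3, Rrp1b and Wdr43, while most did not pass in either direction. A probe set is said here to have passed where limma's Benjamini-Hochberg adjusted p, taken over all 12422 probe sets, was under 0.05. At 0.5 h none of the 94 member probe sets passed against 0 h by limma, and 6 had an unadjusted p under 0.05. At 1 h, 1 was higher and 2 were lower (3.19% of members), where 3.72% of all probe sets passed, 1.96% upward and 1.75% downward. Ddx3x (101542_f_at) was the one higher, and Ddx54, a large subunit helicase, and Ddx39b, a helicase of splicing and mRNA export, were lower. At 2 h, 7 were higher and 3 were lower (10.6% of members), where 12.8% of all passed, 5.74% upward and 7.08% downward. The higher ones were Nop58, Nop56, Fbl, Wdr43 (98973_at), Ddx24 (99096_at) and 2 probe sets of Ddx3x, and the lower ones Polr1c (161347_r_at) and both probe sets of Ddx17. At 4 h, 25 probe sets of 23 genes were higher and 4 probe sets of 3 genes were lower, which is 30.9% of the members against 23.5% of all probe sets. Among all probe sets, 11.5% were higher and 12% were lower at 4 h. The median member difference at 4 h was 0.10, with 73 of 94 above 0, while the median over all probe sets was 0.02, with 54.3% above 0.

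The early counts rested on few arrays and on the fit. The count at 1 h lay between 0 and 2 when each of the 12 arrays compared was left out in turn. It dropped to 1 or 0 without any of them except young 0 h replicate 2 and old PH 1 h replicate 1. At 2 h the count lay between 2 and 15. Omission of replicate 2 of either age at 0 h gave 6, of old 0 h replicate 3 gave 5, of young PH 2 h replicate 2 gave 4, and of old PH 2 h replicate 3 gave 2. With the spike-in mean as a covariate no member passed at 1 h and 1 passed at 2 h. That mean was 9.74 at 0 h and 8.31 and 8.35 at 1 and 2 h after PH. The covariate therefore stands in part for the comparison itself at these times, and its lower counts cannot be read further. Array weights gave higher counts at both times. The count at 4 h lay between 26 and 31 over the same omissions and was 29 with the covariate.

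**Figure D1:**
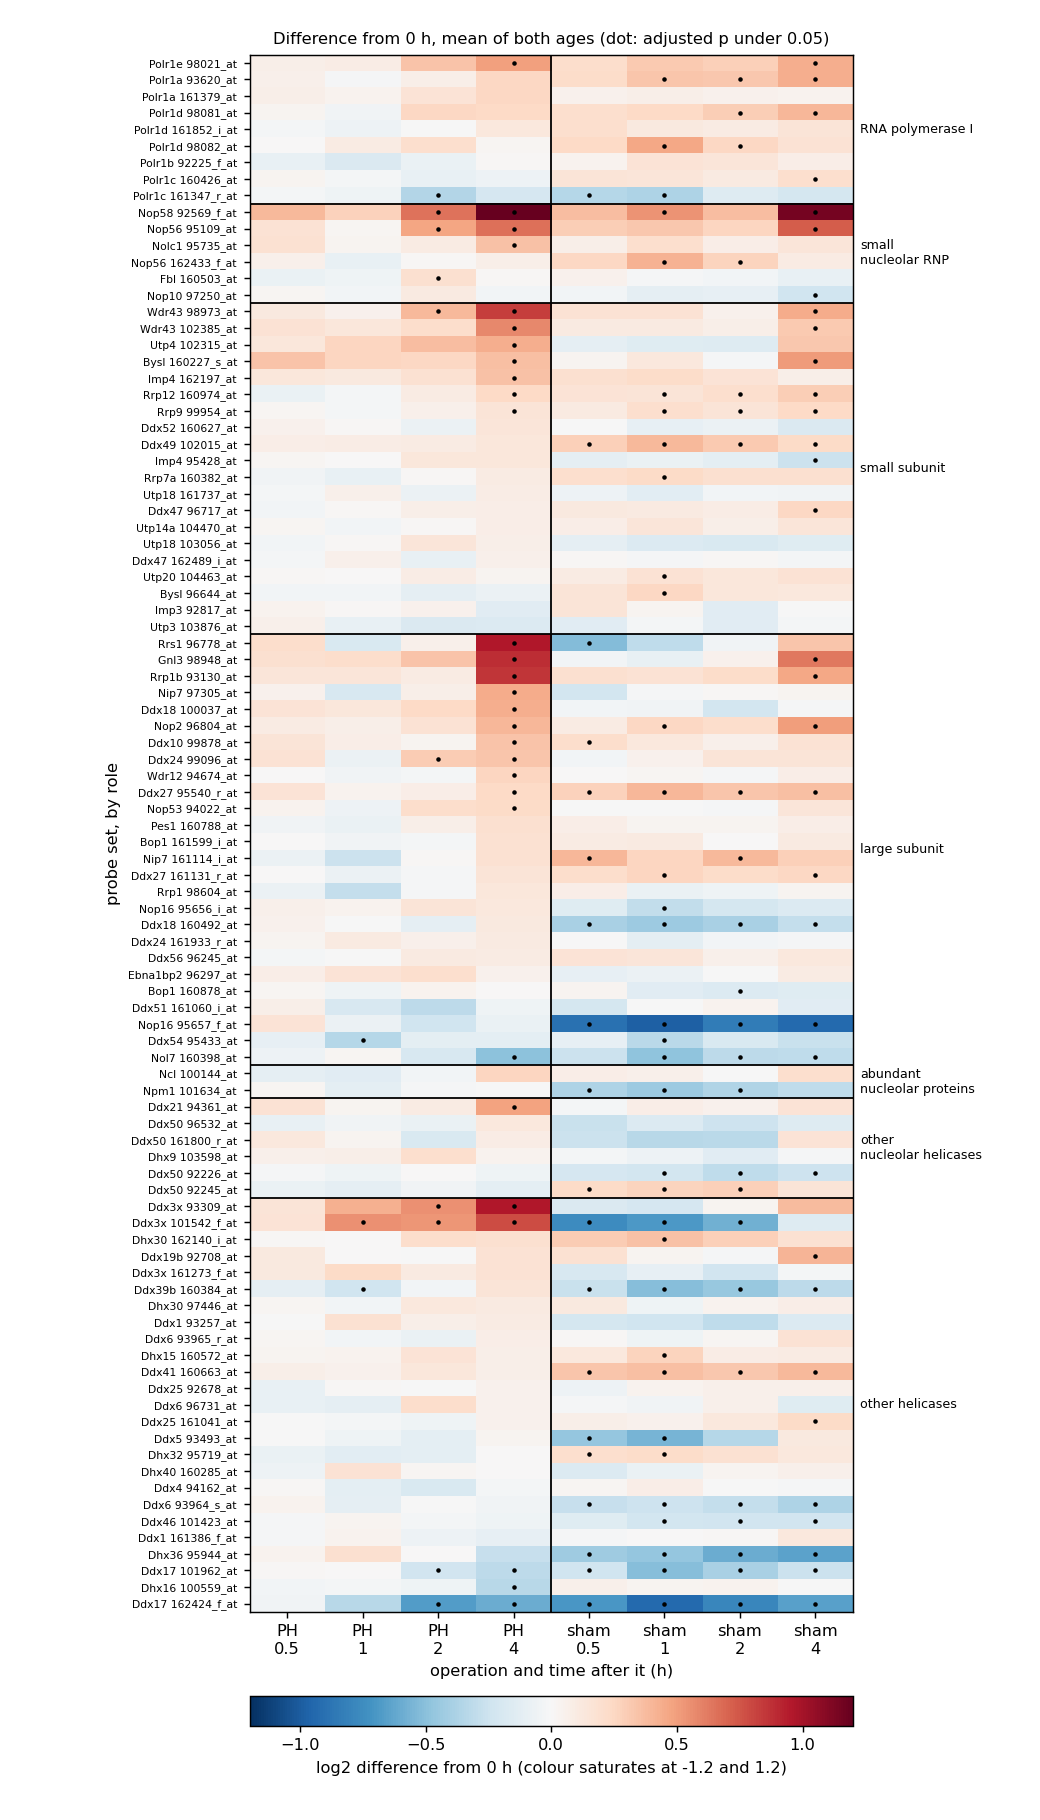
Difference from 0 h (log2, mean of both ages, colour) of the 94 member probe sets (rows, grouped by role) at 0.5, 1, 2 and 4 h after PH (left columns) and sham surgery (right columns). Dots mark an adjusted p under 0.05. Of the PH columns, the one at 4 h holds the most dots, 29, and sham columns hold dots of both directions from 0.5 h on.

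Some markers of other cell types also passed at 4 h after PH, where 11.5% of all probe sets were higher and 12% lower. Of 9 neutrophil probe sets 2 were higher after PH, and the mean level of the list ranged from 5.43 to 5.70 over the 0 h arrays, from 5.73 to 6.14 over the PH arrays and from 6.05 to 6.25 over the sham arrays at 4 h. Of 7 endothelial probe sets 1 was higher and 2 were lower after PH, with mean levels of 6.48 to 6.65 at 0 h, 6.55 to 6.64 after PH and 6.30 to 6.43 after sham surgery. None of 12 macrophage, 8 stellate cell, 5 B and plasma cell or 4 cholangiocyte probe sets passed after PH by limma, and 0, 0, 1 and 1 of them had an unadjusted p under 0.05. The T and NK cell list had 1 of 5 higher, the hepatocyte list 1 of 8 and the list of proliferation genes 2 of 8. Their part in the member differences was not tested.

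Of the RNA polymerase I subunits, Polr1e was the 1 of 9 probe sets that rose at 4 h, a share near the 11.5% of all probe sets. Polr1e (98021_at) encodes a subunit of the polymerase's peripheral dimer. It read 4.35, 4.74 and 4.67 on the young 0 h arrays and 4.43, 4.45 and 4.29 on the old ones, against 4.88, 4.67 and 4.92 and 4.89, 5.36 and 5.19 at 4 h after PH. Old arrays did not overlap between the times, while the lowest young PH array lay below the highest young 0 h array. The difference was 0.49 (SE 0.12) with an adjusted p of 0.00243 by limma. Both probe sets of Polr1a, which encodes the largest subunit, had differences of 0.25 and 0.25 that did not pass (adjusted p = 0.072 and 0.0529). Polr1b, Polr1c and Polr1d probe sets lay between -0.20 and 0.24, and none passed. The median of the 9 was 0.12.

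Among small nucleolar RNP genes, 3 of 6 probe sets rose at 4 h, each from a different gene, where 11.5% of all probe sets rose. Nop58 (92569_f_at), a core protein of the box C/D particles that guide ribose methylation, had the largest difference of all members. The f in the name of its only probe set marks oligonucleotides shared within a gene family, so related transcripts may add to its signal. Its young arrays read 4.80, 4.79 and 4.70 at 0 h and 5.53, 5.58 and 6.06 at 4 h after PH, and its old arrays 4.65, 4.42 and 4.28 and 6.25, 6.45 and 6.43. Every PH array at 4 h lay above every 0 h array, and each old PH array lay above each young one. The difference was 1.44 (SE 0.19), a 2.72-fold rise (adjusted p = 5.91e-07 by limma), and it had already passed at 2 h with 0.65 (SE 0.19).

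Nop56, the partner of Nop58 in the same particles, was read by 2 probe sets that differed. Probe set 95109_at gave 5.99, 5.83 and 5.84 in young and 5.84, 5.52 and 5.53 in old liver at 0 h, and 6.27, 6.18 and 6.36 and 6.41, 6.62 and 6.70 at 4 h. The 6 arrays at 4 h all lay above the 6 at 0 h, with a difference of 0.67 (SE 0.15) (adjusted p = 0.001). Probe set 162433_f_at, which carries the same f, gave 0.07 and did not pass. Nolc1, a chaperone of these particles, rose by 0.35 (SE 0.09). The methyltransferase of the particles, Fbl, gave 0.01 at 4 h and did not pass, after a small rise of 0.19 (SE 0.06) at 2 h. Nop10, of the box H/ACA particles that guide pseudouridylation, gave -0.04 and did not pass.

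The sequence before the gene start is shown for 3 of these genes because members that rose together were compared for the E-box CACGTG, the core motif of the MYC family, and for CCGGAAGT, a motif of ETS factors. Nop58 had the largest rise and neither motif in its 250 upstream bases, and Nop2 and Imp4, described further on, were the risen genes with an E-box. Imp4 rose on 1 of its 2 probe sets, the dimmer one. Sequences are from RefSeq on GRCm38.p6, read on the plus strand at chr1:59684756-59685005 (Nop58), chr6:125131633-125131882 (Nop2) and chr1:34439579-34439828 (Imp4), and capitals mark the E-box.
Nop58: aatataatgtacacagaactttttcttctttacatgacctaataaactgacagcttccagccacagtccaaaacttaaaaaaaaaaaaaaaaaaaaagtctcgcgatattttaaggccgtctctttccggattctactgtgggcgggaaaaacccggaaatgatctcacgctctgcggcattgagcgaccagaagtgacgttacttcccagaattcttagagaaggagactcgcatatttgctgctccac
Nop2: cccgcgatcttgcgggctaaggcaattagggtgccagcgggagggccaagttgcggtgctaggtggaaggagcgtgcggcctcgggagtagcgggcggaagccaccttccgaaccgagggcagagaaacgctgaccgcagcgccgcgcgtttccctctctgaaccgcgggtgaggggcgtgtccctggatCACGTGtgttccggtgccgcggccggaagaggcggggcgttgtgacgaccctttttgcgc
Imp4: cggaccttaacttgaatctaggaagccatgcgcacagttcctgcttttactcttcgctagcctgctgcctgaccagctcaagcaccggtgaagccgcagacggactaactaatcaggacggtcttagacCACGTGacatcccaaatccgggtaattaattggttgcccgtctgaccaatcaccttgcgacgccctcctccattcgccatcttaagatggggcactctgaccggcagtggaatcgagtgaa

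The E-box of Nop2 began at position -60 and that of Imp4 at -121 relative to the gene start. Of the 23 genes that rose at 4 h, 20 had an upstream sequence in the RefSeq table, and 2 of them (10.0%) held the E-box within 250 bases on either strand. The share was 12.5% in the other member genes (5 of 40) and 6.86% over all 27025 genes of the table. The ETS motif lay upstream of Nip7 and Utp4 (10.0% of the 20), of 15.0% of the other members and of 3.23% of all genes. Such a match is a description of the letters and not evidence of a binding site.

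Of 20 small subunit probe sets, 7 rose at 4 h and none fell, with a list median of 0.12. Among all probe sets 11.5% rose and 12% fell. Wdr43, a WD-repeat protein of the processome subcomplex that joins rRNA transcription to processing, rose on both of its probe sets. Probe set 98973_at read 5.98, 5.78 and 5.83 in young and 5.98, 5.81 and 5.50 in old liver at 0 h, and 6.40, 6.60 and 6.64 and 6.59, 6.65 and 6.98 at 4 h. The second, 102385_at, read 6.82, 6.98 and 7.05 and 7.05, 6.90 and 6.77 at 0 h, and 7.24, 7.21 and 7.75 and 7.47, 7.60 and 7.77 at 4 h. In neither probe set did the 2 times overlap. The differences were 0.83 (SE 0.11) and 0.58 (SE 0.10), with adjusted p of 4.49e-07 and 2.8e-05 by limma.

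The other small subunit genes that rose did so by less. Utp4, of the same subcomplex as Wdr43, rose by 0.44 (SE 0.14), and Imp4, a U3 particle protein, by 0.35 (SE 0.09) on probe set 162197_at. That probe set was dim, with a mean of 3.84 over all arrays. The second Imp4 probe set, 95428_at, averaged 7.60, gave 0.13 and did not pass. Bysl, which acts on the late pre-40S particle, rose by 0.36 (SE 0.12) on probe set 160227_s_at, whose suffix marks oligonucleotides shared with similar transcripts, and gave -0.07 on the other. Rrp12, a pre-40S export factor, rose by 0.24 (SE 0.06) and Rrp9, a U3 particle protein, by 0.15 (SE 0.05). Utp3, Utp14a, Utp18, Utp20, Imp3, Rrp7a, Ddx47, Ddx49 and Ddx52 did not pass, with differences from -0.16 (Utp3) to 0.15 (Ddx52).

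**Figure D2:**
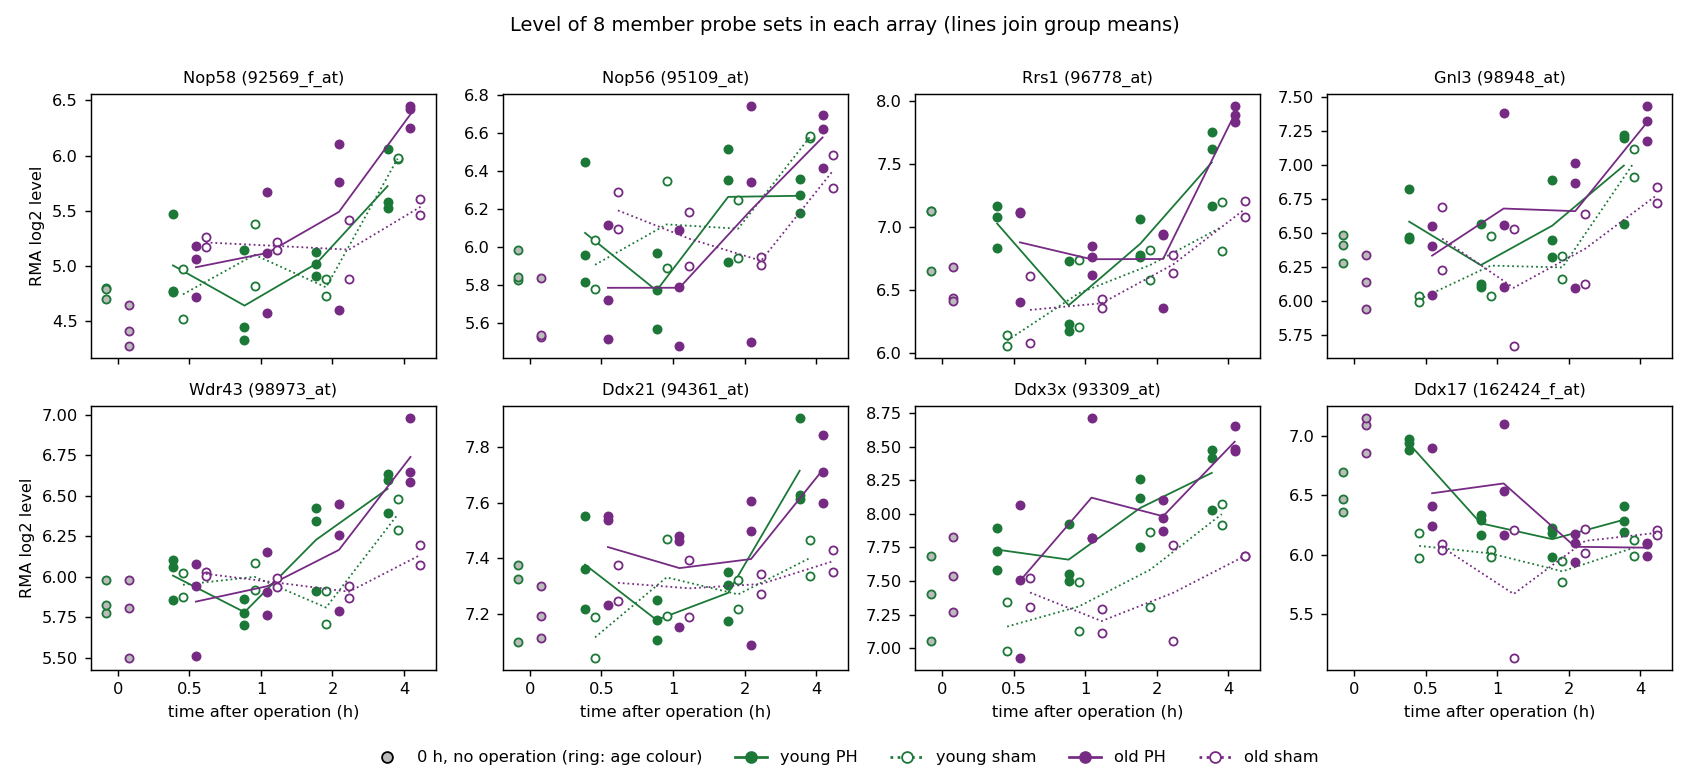
RMA log2 level (vertical axes, scale set per panel) of 8 member probe sets in each of the 46 arrays against time after the operation (horizontal axis, evenly spaced labels). Points are arrays, grey points with a coloured ring are 0 h, lines join group means, filled points and solid lines are PH, open points and dotted lines are sham. The mean at 4 h after PH is the highest group mean of its age in both ages for Rrs1 and in old liver for Nop58 and Gnl3, whereas in young liver the sham mean at 4 h lies above it for Nop58 and Gnl3. For Ddx17 the 4 h PH points of old liver lie below all 0 h points.

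Large subunit and other pre-rRNA processing factors held 11 probe sets that rose and 1 that fell among 26, with a median of 0.18. The shares over all probe sets were 11.5% and 12%. Rrs1 (96778_at), which helps load the 5S RNP onto the large subunit precursor, read 7.13, 7.13 and 6.65 in young and 6.69, 6.44 and 6.42 in old liver at 0 h. At 4 h after PH it read 7.17, 7.62 and 7.75 in young and 7.89, 7.96 and 7.84 in old liver. All 6 PH arrays lay above all 6 at 0 h, in young liver by a narrow margin. The difference was 0.96 (SE 0.13), a 1.95-fold rise (adjusted p = 2.03e-06 by limma). At 2 h after PH it had been 0.07 and had not passed.

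Gnl3 (98948_at), the GTPase nucleostemin, read 6.41, 6.48 and 6.28 in young and 6.34, 5.94 and 6.13 in old liver at 0 h. At 4 h it read 6.57, 7.20 and 7.22 and 7.32, 7.17 and 7.43. The groups did not overlap, although 1 young PH array exceeded the highest 0 h array by little, and the difference was 0.89 (SE 0.18) (adjusted p = 0.000311). Rrp1b (93130_at), a nucleolar partner of protein phosphatase 1, read 5.32, 5.34 and 5.46 in young and 5.18, 5.45 and 5.31 in old liver at 0 h. After 4 h it read 5.60, 5.76 and 6.46 and 6.14, 6.30 and 6.98, again without overlap. Its highest PH arrays stood well above the rest of their groups, and the difference was 0.86 (SE 0.12) (adjusted p = 2.69e-06).

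Nip7 (97305_at), a large subunit assembly factor, read 6.99, 6.90 and 6.82 in young and 6.67, 6.56 and 6.90 in old liver at 0 h, and 6.95, 7.13 and 7.19 and 7.41, 7.43 and 7.39 at 4 h. The old arrays were separate and the young ones overlapped. The difference was 0.44 (SE 0.10), and the second probe set, 161114_i_at, gave 0.18 and did not pass. Ddx18, a helicase of large subunit assembly, rose by 0.44 (SE 0.12) on probe set 100037_at, and 160492_at gave 0.12 and did not pass. Nop2, which methylates large subunit rRNA, rose by 0.40 (SE 0.08). Ddx10, a helicase of pre-rRNA processing, rose by 0.35 (SE 0.06). Ddx24, a nucleolar helicase, rose by 0.33 (SE 0.10) on probe set 99096_at, and 161933_r_at gave 0.10 and did not pass. Wdr12 rose by 0.26 (SE 0.07), while Pes1 and Bop1, its partners in 1 complex of large subunit maturation, gave 0.20 and, on 2 probe sets, 0.00 and 0.19 and did not pass. Ddx27, a nucleolar helicase, rose by 0.24 on probe set 95540_r_at, and 161131_r_at gave 0.15 and did not pass. Nop53, a large subunit assembly factor, rose by 0.23.

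The call of Nop53 was marginal (adjusted p = 0.0443 by limma). It was lost under 4 of 8 other settings and without any of 9 of the 12 arrays compared. Nol7 (160398_at), a nucleolar protein, was the member of this list that fell. Its arrays read 5.54, 5.86 and 5.68 in young and 5.89, 6.01 and 5.69 in old liver at 0 h, and 5.27, 5.24 and 5.41 and 5.33, 5.15 and 5.35 at 4 h after PH. All PH arrays lay below all 0 h arrays, and the level fell by 0.49 (SE 0.10) on the log2 scale (adjusted p = 0.000425).

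Probe sets of 1 gene often gave different values. Of the 22 genes with several probe sets, 9 had one that was higher at 4 h, and only Wdr43 among them had every one higher. Of the 25 probe sets that rose, 4 carry a suffix for oligonucleotides that may read related transcripts or that broke a selection rule, against 23 of all 94.

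Ncl and Npm1, the abundant nucleolar proteins nucleolin and nucleophosmin, did not pass at 4 h after PH. Ncl (100144_at) had a lowest, median and highest level of 7.92, 8.10 and 8.34 at 0 h and 8.12, 8.43 and 8.60 at 4 h. Npm1 (101634_at) had 8.64, 8.80 and 9.09 at 0 h and 8.67, 8.79 and 9.08 at 4 h. The ranges of Npm1 overlapped broadly. Those of Ncl overlapped in part, with the median at 4 h above the highest level at 0 h. The differences were 0.26 (SE 0.15) for Ncl and -0.01 (SE 0.12) for Npm1.

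Among the other nucleolar helicases 1 of 6 probe sets rose, where 11.5% of all probe sets did. Ddx21 (94361_at), a helicase that links RNA polymerase I transcription with rRNA processing, read 7.37, 7.10 and 7.33 in young and 7.30, 7.11 and 7.19 in old liver at 0 h, and 7.61, 7.91 and 7.63 and 7.84, 7.60 and 7.71 at 4 h after PH. All PH arrays lay above all 0 h arrays, and the difference was 0.48 (SE 0.08) (adjusted p = 5.65e-05 by limma). Its close relative Ddx50 did not pass on any of 4 probe sets, which lay between -0.11 and 0.13, and Dhx9, a nuclear helicase, gave 0.04.

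Of 25 probe sets of helicases with roles outside the nucleolus, 2 rose and 3 fell, with a median of 0.05. These counts were near the shares over all probe sets, 11.5% higher and 12% lower. Both that rose read Ddx3x, a helicase of translation initiation. Probe set 93309_at gave 7.40, 7.68 and 7.06 in young and 7.83, 7.54 and 7.27 in old liver at 0 h, and 8.03, 8.41 and 8.47 and 8.65, 8.47 and 8.48 at 4 h after PH. Probe set 101542_f_at gave 8.41, 8.48 and 7.44 and 8.59, 8.59 and 8.42 at 0 h, and 8.59, 9.16 and 9.08 and 9.33, 9.34 and 9.11 at 4 h. On the first the times did not overlap, and on the second young 0 h replicate 3 lay far below the other 0 h arrays while the lowest PH value equalled the highest 0 h value to 2 decimals. The f of the second is the family suffix named for Nop58. The differences were 0.96 (SE 0.16) and 0.78 (SE 0.16), and the other probe set, 161273_f_at, gave 0.18 and did not pass. Ddx3x was also the member that passed earliest in the upward direction, with 0.55 at 1 h on 101542_f_at and 0.55 and 0.53 at 2 h. Its call at 1 h was lost without old 0 h replicate 1 or 3 or young PH 1 h replicate 2 or 3. It was also lost with the spike-in covariate.

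Ddx17, a helicase that acts as a transcription coregulator and in RNA processing, fell on both of its probe sets. Probe set 162424_f_at, which carries the family suffix f, read 6.47, 6.69 and 6.36 in young and 6.85, 7.09 and 7.15 in old liver at 0 h, and 6.19, 6.41 and 6.29 and 6.10, 6.09 and 5.99 at 4 h after PH. Probe set 101962_at read 8.39, 8.40 and 8.32 and 8.35, 8.56 and 8.37 at 0 h, and 8.16, 8.14 and 8.25 and 8.17, 7.80 and 7.99 at 4 h. The second showed no overlap, and on the first the young groups overlapped while the old ones stood far apart. The levels fell by 0.59 (SE 0.13) and 0.31 (SE 0.07) (adjusted p = 0.000759 and 0.0012 by limma), after falls of 0.67 and 0.23 at 2 h.

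Dhx16 (100559_at), a helicase of pre-mRNA splicing, read 6.53, 6.55 and 6.60 in young and 6.74, 6.70 and 6.48 in old liver at 0 h, and 6.31, 6.28 and 6.37 and 6.29, 6.36 and 5.99 at 4 h after PH. The groups did not overlap, and the level fell by 0.33 (SE 0.08) (adjusted p = 0.00349). Ddx5, the closest relative of Ddx17, gave 0.04, the mRNA decay helicase Ddx6 -0.04 to 0.08 on 3 probe sets, and the G-quadruplex helicase Dhx36 -0.28, and none of these passed. Over all members, 11 probe sets lay wholly above and 3 wholly below their 0 h arrays at 4 h (6 arrays against 6), where 4.29% and 5.45% of all probe sets did.

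Several of the genes that rose after PH, Nop58 among them, were also higher in sham liver at 4 h than in unoperated liver, while the share of members that passed was near that of all probe sets. Against the same 0 h arrays, 21 member probe sets were higher and 12 were lower at 4 h after sham surgery (35.1% of members), where 31.3% of all probe sets passed, 17% higher and 14.3% lower. Nop58 on the sham arrays at 4 h read 5.97 and 5.98 in young and 5.47 and 5.61 in old liver, a rise of 1.15 (SE 0.21) over 0 h. Nop56 (95109_at) rose by 0.73, Gnl3 by 0.63, Bysl (160227_s_at) by 0.51, Nop2 by 0.50, Rrp1b by 0.47, Wdr43 (98973_at) by 0.45 and Polr1e by 0.43. Rrs1 read 7.19 and 6.81 in young and 7.08 and 7.20 in old sham liver at 4 h, which overlapped the young 0 h arrays, and its difference of 0.33 did not pass (adjusted p = 0.0922). The probe sets of Ddx3x, Nip7, Ddx18 and Ddx21 that rose after PH also did not pass after sham surgery.

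The direct comparison of PH with sham surgery at 4 h called 17 member probe sets higher and 5 lower after PH, 23.4% of the members and 23.5% of all probe sets (11.3% higher and 12.2% lower). The PH and sham differences from 0 h share the 0 h arrays, whereas this one does not use them. Of the 17, only 9 were among the 25 probe sets higher than 0 h at 4 h after PH, and those 9 are named next. The rest did not pass as higher than 0 h after PH. Ddx3x was higher by 0.58 (SE 0.18) on 93309_at and 0.93 (SE 0.18) on 101542_f_at, and Rrs1 by 0.63 (SE 0.15). Ddx18 (100037_at) was higher by 0.45, Nip7 (97305_at) by 0.41, Rrp1b by 0.39, Wdr43 (98973_at) by 0.38, Ddx21 by 0.32 and Imp4 (162197_at) by 0.27. From 0.5 to 4 h these differences changed by 0.25 and 0.02 for Ddx3x, -0.10 for Rrs1, 0.26 for Ddx18 and 0.15 for Nip7. The changes were 0.44 for Rrp1b, 0.44 for Wdr43, 0.13 for Ddx21 and 0.33 for Imp4, and none passed. In sham liver at 0.5 h Rrs1 averaged 6.22 and Ddx3x (101542_f_at) 7.57, against 6.74 and 8.32 at 0 h. The second Wdr43 probe set, 102385_at, was not among the 17. The differences of Nop58 (0.29 (SE 0.21)), Gnl3 (0.26 (SE 0.20)) and Nop56 (95109_at, -0.07 (SE 0.17)) between the operations did not pass. Without young sham 4 h replicate 2 or old sham 4 h replicate 2 the count of 22 fell to 14.

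**Figure D3:**
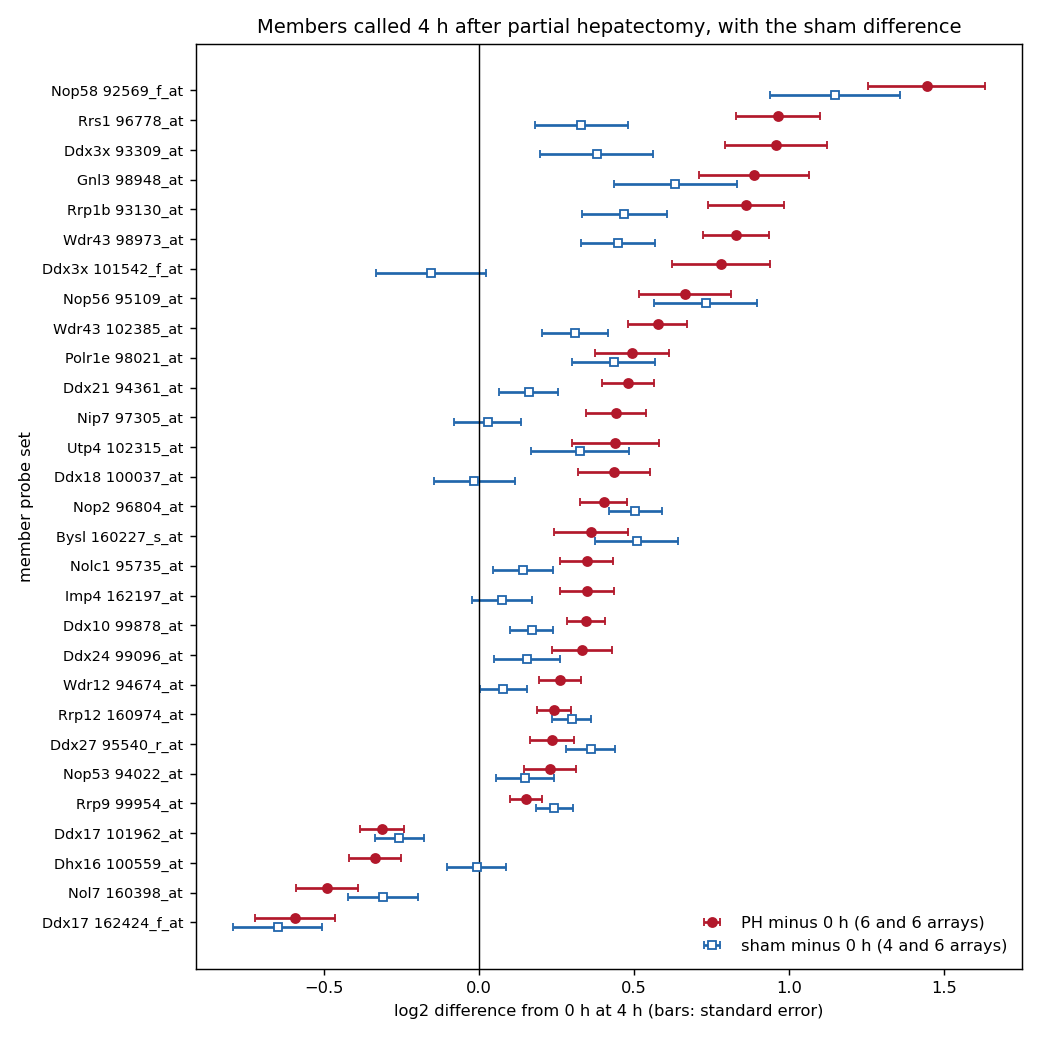
Log2 difference from 0 h at 4 h (horizontal axis, bars are standard errors) of the 29 member probe sets called at 4 h after PH (rows), for PH (filled circles, 6 arrays against 6) and sham surgery (open squares, 4 arrays against 6). Both differences use the same 0 h arrays. Nop56 stands at 0.67 after PH and 0.73 after sham surgery, and Rrs1 at 0.96 and 0.33.

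Sham liver differed from 0 h from the first time on, in both directions. At 0.5, 1 and 2 h, 7, 18 and 11 member probe sets were higher and 12, 16 and 13 were lower, while 22.3%, 34.5% and 30.2% of all probe sets passed in either direction. Among all probe sets, 12.9%, 19.9% and 16.4% were higher and 9.4%, 14.6% and 13.8% lower at those times. The PH differences from 0 h share the 0 h arrays with these. At all 4 sham times Nop16, a large subunit factor, was lower on probe set 95657_f_at (by 0.90 at 0.5 h and 0.93 at 4 h), as were both probe sets of Ddx17, Ddx39b, Ddx6 on probe set 93964_s_at and Ddx18 on probe set 160492_at. Ddx41, Ddx49 and Ddx27 (95540_r_at) were higher at all 4 times. The second Nop16 probe set, 95656_i_at, passed in sham liver only at 1 h, with -0.29. In PH liver neither Nop16 probe set passed at any time. The sham counts moved with single arrays. Without young 0 h replicate 2 or young sham 0.5 h replicate 1 the count of 19 at 0.5 h was 11 or 10. Without young sham 1 h replicate 1 or old sham 1 h replicate 2 that of 34 at 1 h was 21 or 16, and without young 0 h replicate 2 or old sham 2 h replicate 2 that of 24 at 2 h was 15 or 11.

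Against sham liver at the earlier times, PH liver had 13 members higher and 10 lower at 0.5 h, 18 and 21 at 1 h, and 21 and 10 at 2 h. The shares were 24.5%, 41.5% and 33% of members against 29.2%, 43.5% and 34.8% of all probe sets. Of all probe sets, 13.8%, 17.7% and 13.9% were higher and 15.4%, 25.8% and 20.9% lower. Among the largest were Nop16 (95657_f_at), higher by 1.06 at 0.5 h, and Ddx3x (101542_f_at), higher by 1.24 at 1 h. Both were lower in sham liver than at 0 h at those times, by 0.90 and 0.69. The count of 23 at 0.5 h was 10 without young sham 0.5 h replicate 1 and 12 without old sham 0.5 h replicate 2. That of 39 at 1 h was 24 without old sham 1 h replicate 2. That of 31 at 2 h was 20, 19 or 15 without young sham 2 h replicate 1, young sham 2 h replicate 2 or old sham 2 h replicate 2.

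A comparison within the PH arrays used neither 0 h nor sham arrays. From 0.5 to 4 h after PH, 18 member probe sets rose and 5 fell (24.5% of members, 20.4% of all probe sets), with 8.2% of all probe sets higher and 12.2% lower. Nop58 rose by 1.05 (SE 0.19), Ddx3x by 0.80 and 0.62, Rrs1 by 0.75, Rrp1b by 0.72, Wdr43 (98973_at) by 0.71 and Gnl3 by 0.69. Pes1 passed here, rising by 0.24 (SE 0.08), as did Ddx39b, by 0.27. Nol7, Dhx16, Utp3 and both Ddx17 probe sets fell.

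Within sham arrays, 3 members rose from 0.5 to 4 h and none fell (3.19% of members, 2.3% of all probe sets). They were Rrs1 with 0.85 (SE 0.16), Ddx5 with 0.58 (SE 0.16) and Nop2 with 0.40 (SE 0.09). Without old sham 0.5 h replicate 1, young sham 4 h replicate 2 or old sham 4 h replicate 2 the count was 1. The 4 arrays at 4 h lay wholly above the 4 at 0.5 h for 15 member probe sets and wholly below for 2, where 4.92% and 5.83% of all probe sets did. Nop58, Nop56, Gnl3, Wdr43 and Rrp1b were among the 15. The change from 0.5 to 4 h was not shown to differ between PH and sham surgery for any member: none passed by limma, 16 had an unadjusted p under 0.05, and 1.58% of all probe sets passed.

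By age, 9 member probe sets rose and none fell at 4 h in young liver (7.66% of all probe sets passed in either direction, 3.28% upward and 4.39% downward). In old liver 23 rose and 4 fell (14.9% of all passed, 7.96% upward and 6.93% downward). The rises of Nop58, Ddx3x (2 probe sets), Wdr43 (2), Rrp1b, Ddx21 and Ddx10 passed in both ages, and that of Imp4 (162197_at) in young alone. Nop58 rose by 0.96 (SE 0.27) in young and 1.93 (SE 0.27) in old liver, and Rrs1 gave 0.54 (SE 0.19), not passing, and 1.38 (SE 0.19). Ddx3x (93309_at) gave 0.92 and 0.99. The young count was 4 without young 0 h replicate 2, 4 without young 0 h replicate 3 and 5 without young PH 4 h replicate 3.

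These counts do not show that the ages differed. In the test of the age difference in the PH response no probe set of the 12422 passed by limma at 4 h, and 14 members had an unadjusted p under 0.05. None of the members passed in the test over the 4 times either, where 10 had an unadjusted p under 0.05, nor at 0.5, 1 or 2 h, where 7, 6 and 7 did. The age difference was 0.97 (SE 0.38) for Nop58 and 0.84 (SE 0.27) for Rrs1, with adjusted p of 1 and 0.986. The old difference exceeded the young one in 70 of 94 members, and in 58.8% of all probe sets. The median member difference was 0.07 in young and 0.18 in old liver. At 0 h the old arrays were lower for 70 of 94 members, with a median of -0.06. Over all probe sets they were lower for 8362 of 12422, with the same median to 2 decimals.

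**Figure D4:**
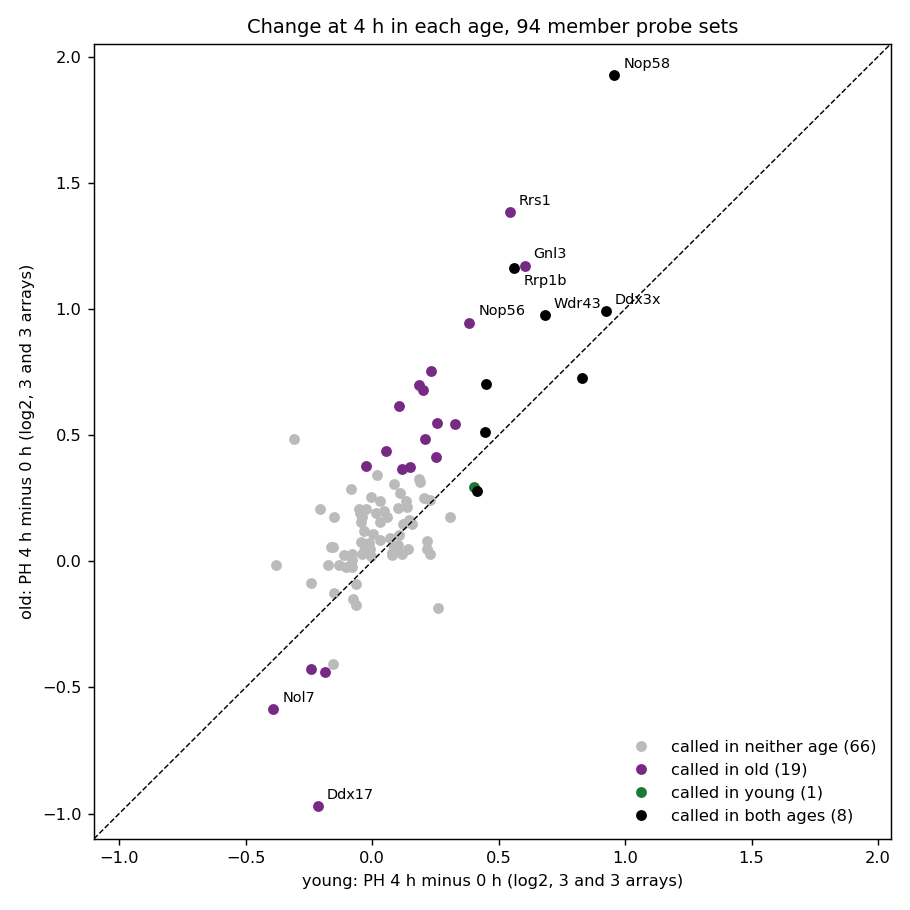
Log2 difference between 4 h after PH and 0 h in young liver (horizontal axis) and old liver (vertical axis) for the 94 member probe sets, each from 3 arrays against 3. Colours show in which age a probe set passed, the dashed line marks equal differences, and 70 of the 94 points lie above it.

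At 2 h, 1 member rose and 1 fell in young liver (3.99% of all probe sets passed, 1.75% upward and 2.24% downward), namely Fbl with 0.28 (SE 0.08) and Polr1c (161347_r_at) with -0.65 (SE 0.14). In old liver 1 rose and 2 fell (5.23% of all passed, 3.03% upward and 2.2% downward), namely Nop58 with 1.04 (SE 0.27) and both probe sets of Ddx17 with -0.96 (SE 0.18) and -0.35 (SE 0.10). The young count was 1 without young 0 h replicate 1 or 2 or young PH 2 h replicate 1 or 2. The old count was 10 without old PH 2 h replicate 2, and 1 without old 0 h replicate 2 or 3 or old PH 2 h replicate 1.

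Few members passed in the comparison of levels between the ages. At 0 h no member passed by limma between old and young liver (0.145% of all probe sets), and 14 had an unadjusted p under 0.05. Averaged over all 9 conditions, 2 members were lower in old liver and none was higher, where 8.93% of all probe sets passed, 5.02% higher and 3.9% lower in old liver. They were Nop10, lower by 0.14 (SE 0.03), and the small subunit gene Utp18, lower by 0.15 (SE 0.04) on probe set 161737_at. The count was 4 without young PH 2 h replicate 1 and 7 without old sham 1 h replicate 1.

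Other genes of ribosome production, outside the name rule, were read from 2 lists. Of 14 probe sets for rRNA transcription, 5 rose at 4 h after PH and none fell, with a median of 0.13. Among all probe sets 11.5% rose and 12% fell. Myc, a transcription factor that drives ribosome production, gave -0.01 at 0.5 h and rose by 1.19, 1.54 and 1.19 (SE 0.27) at 1, 2 and 4 h. In sham liver at 4 h Myc gave -0.37, not passing, and it was higher after PH than after sham surgery by 1.55 (SE 0.30). All 3 probe sets of Taf1d, a subunit of the polymerase I selectivity factor, rose by 0.24 to 0.48, and 1 of 3 of Mybbp1a by 0.25. Ubtf, Rrn3, Tcof1 and the other selectivity factor genes did not pass.

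Of 61 probe sets of other assembly and processing factors, 19 rose and 3 fell at 4 h after PH, with a median of 0.11. The shares over all probe sets were 11.5% and 12%. Tsr1, which acts in 40S maturation, rose by 1.12 (SE 0.17), Rcl1, of the small subunit processome, by 1.05 (SE 0.12), and Eif6, which keeps the new large subunit from joining the small one, by 0.74 (SE 0.15). Ppan, Nifk and Gar1, 2 large subunit or nucleolar factors and a box H/ACA protein, rose by 0.68, 0.67 and 0.64. Emg1, an 18S rRNA methyltransferase, fell by 0.41 (SE 0.06), and the exosome subunit Exosc7 and the ATPase Nvl, on 1 of its probe sets, fell by 0.32 and 0.19. In sham liver at 4 h, 14 of the 61 were higher and 4 lower, where 17% of all probe sets were higher and 14.3% lower. Rcl1 with 0.54, Nifk with 0.63 and Eif6 with 0.57 were among the higher ones.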

How the data were processed

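Liver RNA of 46 arrays in 18 groups was analysed. The deposited values are log2 expression levels made by the authors with RMA, per the submitters' processing notes, a method that background-corrects, quantile-normalises and summarises oligonucleotides per probe set, so that values of different probe sets are not on one scale. The number of arrays limits the precision. Of 12488 probe sets, 66 controls were left out. Gene symbols came from the platform annotation, in which 10833 probe sets have 1 symbol, 396 several and 1193 none.

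limma 3.58.1 (lmFit, eBayes) in R 4.3.3 fitted 18 group means to all 46 arrays, without a filter. Comparisons were contrasts of group means, with Benjamini-Hochberg adjustment over 12422 probe sets. Of the comparisons, 22 were planned and 4 were added after the data were seen (sham 4 h against 0.5 h, and the age difference in the PH response at 0.5, 1 and 2 h). The fit was tested on simulated data. The members and gene lists were chosen with earlier results of these data known. Values in every array are given for up to 12 members with the largest rises at 4 h after PH and up to 6 with the largest falls that passed. Other members were named by role.

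Alternatives were median centring, leaving out the dimmest 25% of probe sets, trended and robust moderation, the compared groups alone, replicate number as a block, array weights, a spike-in covariate, leaving out young 0 h replicate 3 and old PH 0.5 h replicate 3 together, and leaving out each array. Replicate numbers did not pair the arrays.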

Additional observations from a re-analysis of the deposited data

How the results depend on the processing

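Of the 29 member probe sets that passed at 4 h after PH against 0 h, 29 did so with trended and robust moderation, array weights or 2 arrays left out, 28 with median centring, the replicate block or the spike-in covariate, 27 with the compared groups alone, and 25 of 25 without the dimmest probe sets. None changed sign. Leaving out 1 array gave counts from 26 to 31. Utp4 lost its call when young PH 4 h replicate 3, old 0 h replicate 3 or young 0 h replicate 2 was omitted (values from 0.38 to 0.49 over all omissions). Bysl (160227_s_at) lost it without young 0 h replicate 1 or 2, old 0 h replicate 2, young PH 4 h replicate 3 or old PH 4 h replicate 1 (0.31 to 0.43), Ddx27 (95540_r_at) without young PH 4 h replicate 1 (0.19 to 0.26), Rrp9 without 6 of 12 arrays (0.12 to 0.19) and Nop53 without 9 of 12 (0.18 to 0.30).

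Counts of members moved by over 1.5 times elsewhere, and the cause was not tested. Array weights gave 8 at 1 h and 23 at 2 h after PH against 0 h, 34 for PH against sham at 4 h, 33 and 52 for sham against 0 h at 0.5 and 4 h, 15 for PH at 2 h in young, 8 for age at 0 h, 4 for age over all conditions, 1 for the test of the age difference over the 4 times, 2 for that at 0.5 h, 3 for the change in PH minus sham and 9 for sham 4 h against 0.5 h. The compared groups alone gave 1 and 6 at 1 and 2 h after PH, 25 for PH against sham at 1 h, 1 for PH at 2 h in old, 3 for PH at 4 h in young, 1 for the change in PH minus sham and 11 for sham 4 h against 0.5 h. The spike-in covariate gave 0 and 1 at 1 and 2 h after PH, 17 for PH against sham at 2 h, and 1 and 0 for PH at 2 h in young and old. Without 2 arrays the count at 4 h in young was 4.

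The numbers did not pair the arrays: the mean correlation of deviations was 0.006 for equal and -0.0029 for unequal numbers, and in 13 of 153 pairs of groups every equal pair was over 0.1. The replicate block gave 5 in place of 3 for PH at 2 h in old and no other count beyond 1.5 times.

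Leaving out each array gave 0 to 2, 2 to 15 and 26 to 31 for PH at 1, 2 and 4 h, 10 to 21, 24 to 40, 15 to 33 and 14 to 25 for PH against sham, 10 to 22, 16 to 35, 11 to 28 and 25 to 36 for sham against 0 h, 1 to 2 and 1 to 10 for PH at 2 h in young and old, 4 to 9 and 20 to 26 at 4 h, 2 to 7 for age over all conditions, 21 to 24 for PH 4 h against 0.5 h, 0 to 1 for the change in PH minus sham (1 without young PH 4 h replicate 2), 1 to 2 for sham 4 h against 0.5 h, and 0 for every other comparison.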

Other observations

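Within some groups 1 array held the lowest or highest value for most of the 25 probe sets that rose at 4 h after PH. The same share over all probe sets was not counted, so nothing particular to these members is shown. Among the old PH arrays at 2 h, replicate 2 held the lowest value for 22 of the 25, with a mean level over them of 6.18, against 6.60 and 6.67 in the other 2 arrays. The medians of replicates 1, 2 and 3 over all probe sets were 6.28, 6.25 and 6.27. For Nop58 the values were 6.10, 4.61 and 5.76, for Nop56 6.34, 5.50 and 6.74 and for Gnl3 7.01, 6.10 and 6.87. At 1 h after PH, young replicate 1 held the highest value for 20 of the 25, and old replicate 3 for 15, with Gnl3 at 6.10, 6.55 and 7.38 and Ddx3x (93309_at) at 7.82, 7.82 and 8.71 over the old arrays. In old liver at 4 h the means over the 25 were 6.81, 6.83 and 6.91, and at 0 h 6.25, 6.13 and 6.10. These groups of probe sets were chosen by the 4 h difference, and the arrays were singled out after their values were seen.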
